A study of Rattus norvegicus with 18 samples.

Results

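This account covers the liver of newborn rats at 4 hours after birth, set against the liver of fetuses at embryonic day 21 (E21), the last stage sampled before birth. The members were the 3 arrays titled as 4 hours postnatal and the 3 arrays titled E21, which makes 6 of the 18 arrays in the study. All animals were Sprague Dawley rats, and the labels give no treatment, transgene or genotype. The E21 fetuses were taken by caesarean section and killed before they breathed, whereas the time of birth of the pups was observed directly. Liver was flash frozen, and total RNA was read on Affymetrix rat transcriptome arrays, with 3 arrays at each of 6 ages (E21, 30 min, 4 h, 12 h, 1 day and 7 days). Each age was collected from triplicate dams, and p-values reflect the spread among the arrays of an age. Not stated are the sex of the pups, whether several were pooled, and whether the 4 h pups had suckled.

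Before birth the placenta supplies the fetus with glucose, amino acids and oxygen. After birth this supply stops, insulin falls, glucagon and catecholamines rise, and the liver breaks down its glycogen and then makes glucose from lactate, glycerol and amino acids until milk arrives. Glucagon acts through cyclic AMP (cAMP) and protein kinase A, which phosphorylates the transcription factor CREB, and fat from milk later drives fatty acid oxidation and ketone body formation.

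The values are array intensities, analysed here on the log2 scale, with 1 transcript cluster (the array's unit for a gene) kept for each of 18926 gene symbols. Over 24 genes taken to be silent in liver, 95% of the readings on the 6 arrays lay below 6.72, and this level was used as the floor. An array of either age at or below the floor was set to it where a change is given as "at least". Such a fold is a lower bound only where no array of the higher age was set to the floor. The arrays within E21 correlated at 0.9895 to 0.9917, those within 4 h at 0.9873 to 0.9937, and arrays of different age at 0.9791 to 0.9906. On the first principal component (49.9% of the variance) the E21 arrays stood at -14.9, -32.9 and -30.0 and the 4 h arrays at 35.0, 40.9 and 1.98. Thus the third 4 h array stood between the other 4 h arrays and E21, and E21 replicate 1 stood nearest to it, so counts are also given without the third 4 h array where they lead.

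By limma with Benjamini-Hochberg adjustment, 892 genes (4.71%) differed between 4 h and E21 at an adjusted p below 0.05. Of these, 550 were higher at 4 h (2.91%) and 342 were lower (1.81%), and the median size of a called change was 0.79 on the log2 scale. At least a 2-fold change was fitted for 224 of the higher genes and for 72 of the lower genes. The 3 arrays of one age lay wholly above the 3 of the other for 876 of the 892 genes, where 21% of all genes had groups that did not overlap. For 212 of the 892, all 3 arrays of the age with the lower mean lay at or below the floor. Their fitted changes thus have no exact size. Each of the 550 higher genes read above its E21 mean on each 4 h array, but by a smaller median on the third (0.63) than on the first (0.92) or second (1.03). Leaving out single arrays, the count was 1371 genes without the third 4 h array, but 335 without the first, 274 without the second, and 299 and 505 without E21 replicates 2 and 3. It fell to 139 when the spread was taken from the 6 arrays alone rather than from all 18. With the replicate number as a block it was 1028 (5.43%). The counts of the gene lists below are to be read beside the 4.71% of all genes.

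**Figure D1:**
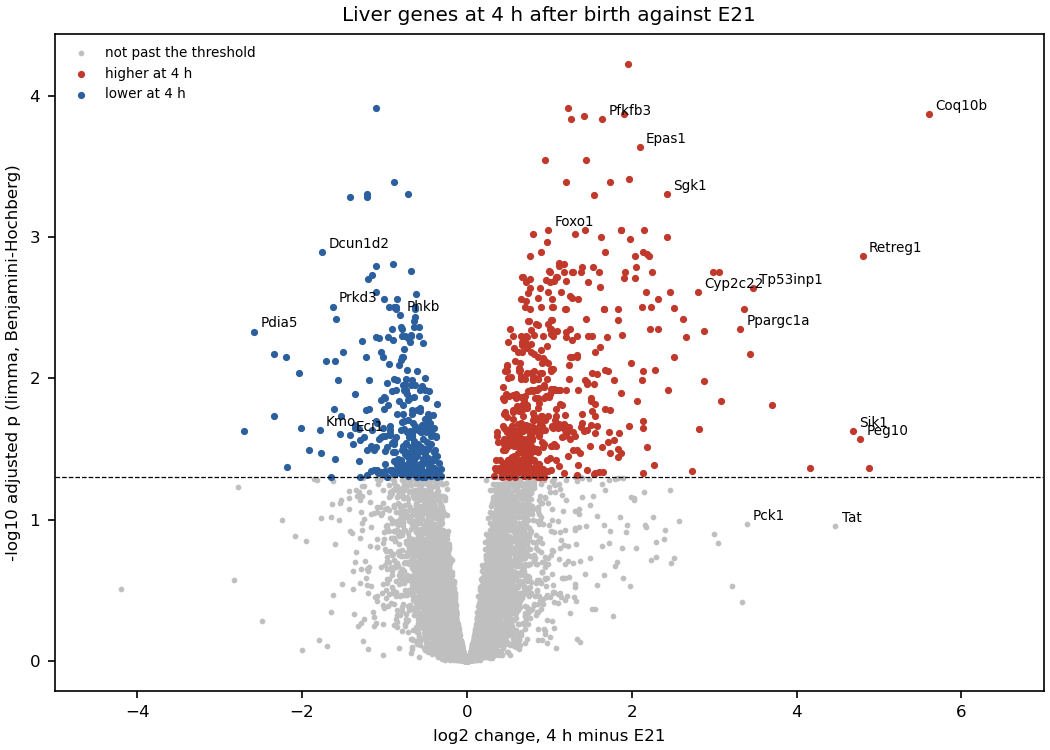
Each point is 1 of the 18926 genes, with the fitted log2 change (4 h minus E21) across and the -log10 adjusted p upward. Red points are the 550 genes higher at 4 h, blue points the 342 lower, grey points those not past the threshold, and the dashed line marks an adjusted p of 0.05. The rises reach further than the falls, with Coq10b at 5.61, while Pck1 and Tat show large changes that did not pass.

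Genes of the cAMP and CREB pathway were the list with the highest median change. Of its 20 measured members 10 rose and 1 fell, and the median log2 change was 1.06, against -0.01 over all genes. Nr4a3, an orphan receptor counted among the 10, lay below the floor on all 6 arrays. The list's median on the 3 arrays of 4 h was 1.37, 1.38 and 0.25 above the E21 mean, so the third array read close to E21. Without that array the counts were still 10 higher and 1 lower. From the 6 arrays alone 1 member was called higher.

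Among coactivators, Ppargc1a, which drives gluconeogenic and mitochondrial genes in fasting, read 10.27, 8.71 and 8.78 at E21 and 13.31, 13.14 and 11.26 at 4 h. It was 9.96-fold higher at 4 h (log2 change 3.32, SE 0.57, adjusted p = 0.00446 by limma). Its relative Ppargc1b rose 3.46-fold (1.79, SE 0.36, adjusted p = 0.0102). Sik1, a kinase that is induced by CREB and restrains its coactivators, read 10.72, 9.04 and 8.99 at E21 and 16.01, 15.88 and 10.91 at 4 h. It rose 25.7-fold on average (4.68, SE 1.08, adjusted p = 0.0235), although the third 4 h array lay barely above its highest E21 array. Crem, whose products feed back on CREB, read 7.54, 6.56 and 6.90 at E21 and 9.72, 9.47 and 8.2 at 4 h, which is at least 4.22-fold higher (adjusted p = 0.0201).

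The orphan nuclear receptors Nr4a1 and Nr4a2, early cAMP targets in liver, were at or below the floor on all E21 arrays. At 4 h Nr4a1 read 7.82, 8.32 and 6.4 and Nr4a2 read 8.47, 9.71 and 6.22, so both were at background on the third array. With the background arrays set to the floor they were 1.87-fold and 2.99-fold higher, which are no lower bounds (adjusted p = 0.0185 and 0.0467 by limma). Creb1 itself, the single member that fell, read 8.39, 8.17 and 8.29 at E21 and 7.75, 7.62 and 7.50 at 4 h (-0.66, SE 0.14, adjusted p = 0.0168). It and Prkar1a, a regulatory subunit of protein kinase A (1.06, SE 0.22, adjusted p = 0.0119), are named after their values were seen. Of these genes Ppargc1a passed in all 6 fits that each left out 1 array, with a highest adjusted p of 0.0301. Sik1 reached 0.126, Crem 0.0992, Ppargc1b 0.0638, Nr4a1 0.0957 and Nr4a2 0.198. Each of these lost its call without E21 replicate 2 or 4 h replicate 2, and all but Ppargc1b also without 4 h replicate 1. Sik1 and Crem lost it without E21 replicate 3 as well, and Nr4a2 passed only without the third 4 h array.

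CREB binds the cAMP response element, so the promoters of the rising genes were searched for it, and 6 are printed. From the named rises in the cAMP list and the 15 largest rises, these are the 3 that hold the full element and, of those that hold only its part, the 3 with the largest change. The search covered the 250 bases before each gene's start in the RefSeq promoter table (build GRCr8), on both strands, for the full element TGACGTCA and for its part TGACG or CGTCA, which lies within every full element. Capitals mark the matches. Retreg1, Ppargc1a and Crem hold the full element, at positions -94, -181 and -56 from the start, Crem in 1 of its 3 promoter windows. Coq10b and Sik1 hold the part at 2 places and Chac1 at 1.
Retreg1, chr2:78065990-78066077, + strand: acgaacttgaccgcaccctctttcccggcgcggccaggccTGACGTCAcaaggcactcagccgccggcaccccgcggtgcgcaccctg
Ppargc1a, chr14:63634087-63634174, + strand: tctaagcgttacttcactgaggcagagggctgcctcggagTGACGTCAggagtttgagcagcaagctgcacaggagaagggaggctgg
Crem, chr17:58984701-58984788, + strand: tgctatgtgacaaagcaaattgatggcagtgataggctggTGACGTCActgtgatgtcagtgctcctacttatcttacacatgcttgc
Coq10b, chr9:64047975-64048070, + strand: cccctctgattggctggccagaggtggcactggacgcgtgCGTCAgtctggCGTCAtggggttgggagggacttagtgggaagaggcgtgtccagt
Chac1, chr3:126795881-126795951, + strand: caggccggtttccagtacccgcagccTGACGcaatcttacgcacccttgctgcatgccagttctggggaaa
Sik1, chr20:9958782-9958877, - strand: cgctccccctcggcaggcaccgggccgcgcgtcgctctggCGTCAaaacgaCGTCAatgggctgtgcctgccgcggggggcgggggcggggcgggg

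The full element lay in the window of 24 of the 449 higher genes with a promoter in the table (5.35%) and 3 of the 294 lower genes (1.02%), against 359 of 15386 genes tested (2.33%). The part, with or without the full element, was commoner, in 35% of higher genes, 23.5% of lower genes and 23.3% of all tested. Without the full element it lay in 29.6%, 22.4% and 20.9%. Of the 13 largest rises with a promoter 7 held the part, and of the 11 largest falls 0 did. These shares describe letters in a window and say nothing about binding in these livers.

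The largest rise of all was Coq10b, which encodes a mitochondrial protein that binds coenzyme Q. It read 8.50, 8.06 and 7.92 at E21 and 14.86, 14.28 and 12.17 at 4 h. Every 4 h array lay far above E21, and the gene was 48.9-fold higher (5.61, SE 0.54, adjusted p = 0.000134). It was the only called gene among 16 of coenzyme Q synthesis and mitochondrial biogenesis, whose median change was -0.09. Retreg1, a receptor for the selective degradation of endoplasmic reticulum by autophagy, read 8.56, 7.04 and 7.09 at E21 and 12.70, 13.89 and 10.51 at 4 h. It was 27.9-fold higher (4.80, SE 0.66, adjusted p = 0.00136), and was likewise the only called gene among 9 receptors of this kind.

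Several other large rises were carried by the first 2 arrays of 4 h. Chac1, a glutathione-degrading enzyme, was at background at E21 and read 10.89, 11.60 and 5.79 at 4 h, so the third 4 h array was at background too. With these background arrays set to the floor, Chac1 was 8.12-fold higher, which is no lower bound (adjusted p = 0.0427 by limma). Peg10, an imprinted gene derived from a retrotransposon, read 6.55 to 6.56 at E21 and 13.91, 12.77 and 7.30 at 4 h (at least 24.4-fold, adjusted p = 0.0268). Insc, an adaptor of spindle orientation, read 11.88, 11.63 and 7.56 at 4 h against 6.53 to 6.82 (at least 12.2-fold, adjusted p = 0.0153). When single arrays were left out, Chac1 and Peg10 passed only without the third 4 h array, with a highest adjusted p of 0.203 and 0.137. Insc reached 0.0916.

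For Tp53inp1, Gadd45b and Agt, also among the 15 largest rises, the third 4 h array also stood clear of all E21 arrays. Tp53inp1, a stress-induced protein that takes part in autophagy, read 11.25, 10.67 and 10.23 at E21 and 14.63, 14.37 and 13.56 at 4 h, an 11.1-fold rise (adjusted p = 0.00228). Gadd45b, a stress-induced regulator of kinase signalling, read 7.39, 6.49 and 6.43 against 11.02, 10.50 and 8.86, at least 9.09-fold higher (adjusted p = 0.0032). Agt, which encodes angiotensinogen, a liver hormone precursor, read 13.71, 12.16 and 12.22 against 16.21, 16.11 and 14.93 (8.31-fold, adjusted p = 0.00176). Groups without overlap were a condition of entry to the 15 largest rises, so their separation is no added result. Each of these 3 genes passed in all 6 fits that left out 1 array. The same held for Rnd3 (7.93-fold), Phaf1, an autophagosome-associated factor (7.38-fold), and Gramd1c, a sterol carrier of the endoplasmic reticulum (10.9-fold). Phaf1 read 13.83, 13.81 and 11.38 at 4 h against at most 10.72 at E21, and Gramd1c 12.86, 13.21 and 10.21 against at most 9.16, so in both the third array lay nearer to E21 than to the other 4 h arrays. A second Gramd1c cluster, of nearly the same mean brightness, had a change of 1.31 that did not pass in a fit of all clusters (adjusted p = 0.11). Sat1, which acetylates polyamines, rose 7.34-fold, with a highest adjusted p of 0.0662 when single arrays were left out.

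**Figure D2:**
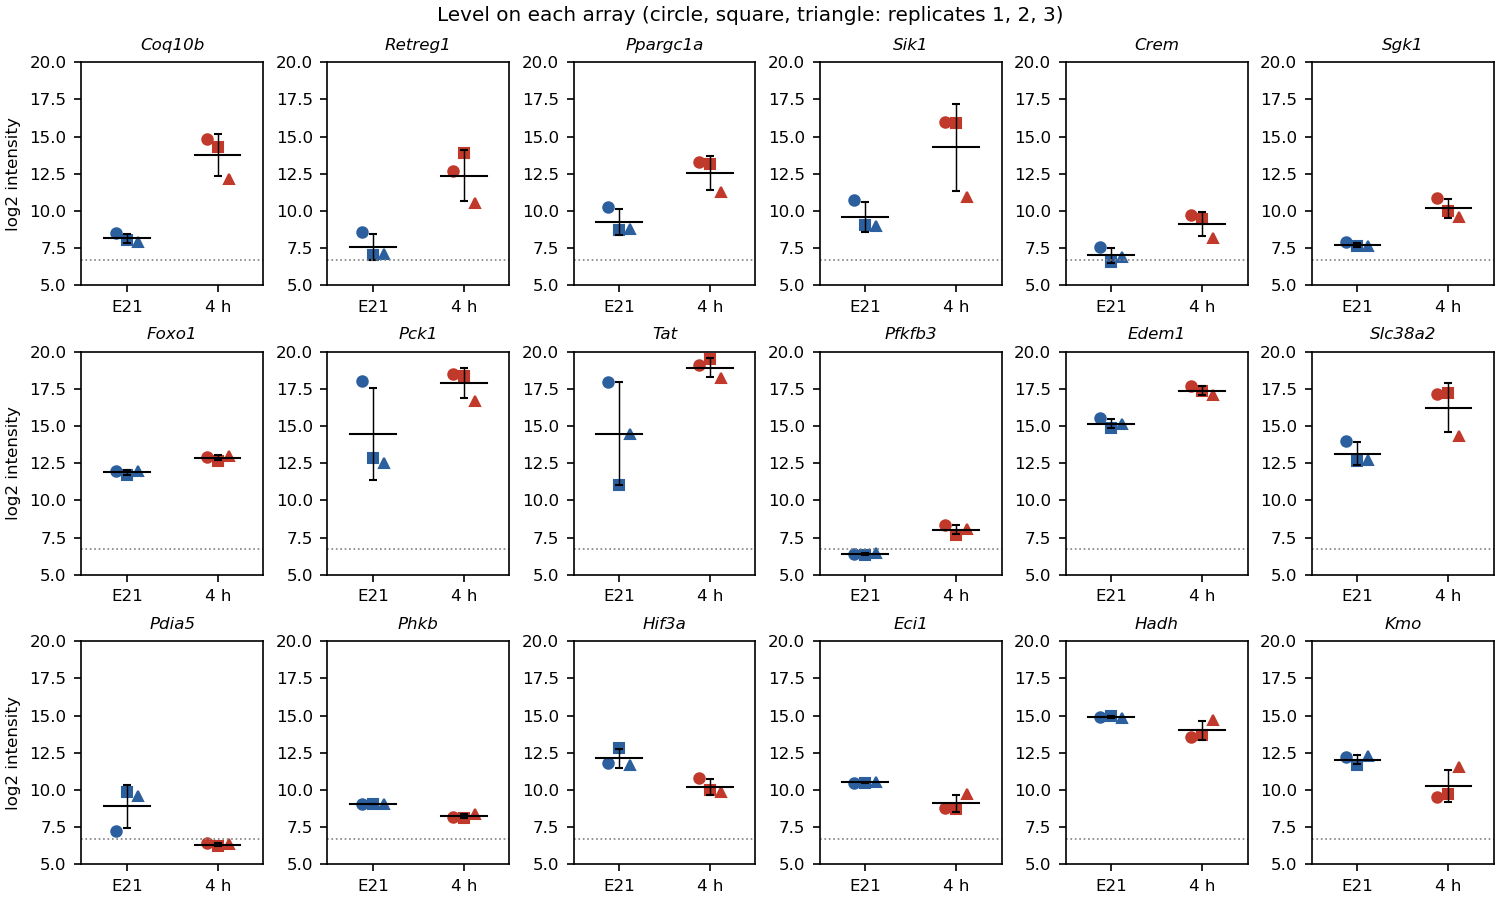
Log2 intensity of 18 genes on the 3 arrays of E21 (blue) and the 3 of 4 h (red), with circles, squares and triangles for replicates 1, 2 and 3, a black line for the mean, bars for the SD and a dotted line at the floor of 6.72. The triangle of 4 h, the third array, is the 4 h value nearest E21 for Coq10b, Retreg1, Sik1, Eci1, Hadh and Kmo, and the E21 circle of Pck1 at 18.06 lies within the 4 h values.

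Of 15 genes of gluconeogenesis and glucose export 1 passed (6.67%, against 4.71% of all genes). This was Gk, which phosphorylates glycerol and rose (0.98, SE 0.26, adjusted p = 0.0456), and the median was -0.07. Pck1, which encodes the cytosolic phosphoenolpyruvate carboxykinase of gluconeogenesis, read 18.06, 12.87 and 12.48 at E21 and 18.51, 18.39 and 16.71 at 4 h. E21 replicate 1 was as high as the 4 h arrays and the groups overlapped, so the fitted change of 3.40 (SE 1.13) missed the threshold (adjusted p = 0.107). With the replicate number as a block Pck1 passed (adjusted p = 0.0362). G6pc1, the glucose-6-phosphatase that frees glucose for export, read 16.21, 15.15 and 14.71 at E21 and 17.06, 17.16 and 14.68 at 4 h (adjusted p = 0.644). Fbp1, the fructose bisphosphatase of the same pathway, changed by -0.07 (SE 0.21, adjusted p = 0.939). Gk lost its call without any of E21 replicates 1 and 2 and 4 h replicates 1 and 2 (highest adjusted p = 0.198).

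Of 13 insulin and glucagon signalling genes Foxo1 and Pik3r1 rose. Foxo1, a transcription factor that insulin keeps out of the nucleus, read 11.96, 11.71 and 12.00 at E21 and 12.95, 12.67 and 13.01 at 4 h. All 4 h arrays, the third included, lay above E21 (1.98-fold, 0.99, SE 0.13, adjusted p = 0.000887). Pik3r1, a regulatory subunit of the kinase below the insulin receptor, rose 2.05-fold (adjusted p = 0.00386). Irs2, an adaptor of the insulin receptor, read 13.15 and 12.99 on the first 2 arrays of 4 h but 10.78 on the third, against 11.04 to 12.11 at E21 (adjusted p = 0.651). Igfbp1, a fasting-induced binding protein of insulin-like growth factors, was too close to the top of the scale (19.93) to be compared.

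Of 13 glycogen genes 2 were called lower and 0 higher, with a median of -0.50. Without the third 4 h array 2 were lower and 1 higher, and from the 6 arrays alone 1 was lower and 0 higher. Phkb, a subunit of the kinase that activates glycogen phosphorylase, read 9.05, 9.03 and 9.02 at E21 and 8.18, 8.13 and 8.36 at 4 h, a tight and separate set (-0.81, SE 0.13, adjusted p = 0.00355). Ppp1r3b, which targets a phosphatase to glycogen and so favours its synthesis, read 7.86, 7.85 and 9.64 at E21 and fell to 6.01, 5.84 and 6.94 (at least 3.16-fold lower, adjusted p = 0.0423, up to 0.166 when single arrays were left out). Gys2, the liver glycogen synthase, and Pygl, the liver phosphorylase, changed by -0.53 and -0.56 and did not pass (adjusted p = 0.807 and 0.286). The largest fitted change in the list was positive, that of Ppp1r3g, another subunit that targets a phosphatase to glycogen. It read 9.89, 8.04 and 6.99 at E21 and 12.74, 12.67 and 8.66 at 4 h, with overlap, and did not pass (3.05, SE 1.11, adjusted p = 0.145).

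Of 21 glycolysis genes 2 rose (9.52% called, against 4.71% of all genes). Both encode bifunctional enzymes that set fructose 2,6-bisphosphate, an activator of glycolysis. Pfkfb3 was at background at E21 (6.33 to 6.45) and read 8.32, 7.69 and 8.10 at 4 h, above E21 on all 3 arrays. On average it was at least 2.50-fold higher (adjusted p = 0.000147 by limma). Pfkfb2 rose by 0.48 (SE 0.13, adjusted p = 0.0423), but passed only without the third 4 h array when single arrays were left out (highest adjusted p = 0.204). The median over the list was 0.27.

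Mitochondrial fatty acid oxidation genes leaned lower at 4 h. Of 19 genes 4 fell, 0 rose and 18 had a negative fitted change, with a median of -0.62. The medians on the 3 arrays of 4 h were -0.96, -0.80 and -0.14. Eci1, an enoyl-CoA isomerase for unsaturated fatty acids, read 10.47, 10.49 and 10.55 at E21 and 8.79, 8.74 and 9.72 at 4 h (2.68-fold lower, adjusted p = 0.0253). Decr1, a reductase for the same substrates, read 14.64, 14.75 and 14.88 against 12.97, 13.33 and 14.06 (2.47-fold lower, adjusted p = 0.0382). Hadh, a hydroxyacyl-CoA dehydrogenase, read 14.90, 14.97 and 14.84 against 13.56, 13.71 and 14.71 (1.88-fold lower, adjusted p = 0.0446), and Acads, which oxidises short chains, fell 1.86-fold (adjusted p = 0.0333). The groups did not overlap for any of the 4, but for Hadh the third 4 h array was just below E21.

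The fatty acid oxidation count turned on single arrays and on the block. It was 13 lower without the third 4 h array, 8 lower with the replicate number as a block and 0 from the 6 arrays alone. When single arrays were left out, Eci1, Decr1 and Hadh passed only without the third 4 h array, and the highest adjusted p of the 4 genes lay between 0.126 and 0.195. Cpt1a, the gate for long-chain fatty acids into mitochondria, did not pass (0.43, SE 0.49, adjusted p = 0.776). Of 4 ketone body genes Slc16a6, a transporter known in zebrafish to export ketone bodies from liver, rose at least 2.06-fold (adjusted p = 0.00501). Bdh1, which forms hydroxybutyrate, had a change of -1.09 (SE 0.34, adjusted p = 0.0819, or 0.0152 with the block).

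PPAR alpha targets and lipid droplet genes showed no common rise at 4 h, with 1 of 16 higher, 1 lower and a median of -0.30. Pnpla2, the first lipase of triglyceride breakdown, read 12.07, 10.40 and 10.66 at E21 and 12.85, 13.26 and 12.62 at 4 h (3.66-fold higher, adjusted p = 0.0335). Vnn1, a pantetheinase and known PPAR alpha target, read 10.79, 10.87 and 10.86 at E21 and 9.04, 8.43 and 10.13 at 4 h (3.12-fold lower, adjusted p = 0.0498). Plin2, the coat of lipid droplets, and Angptl4, an inhibitor of lipoprotein lipase, did not pass (adjusted p = 0.476 and 0.501). Fgf21, a fasting hormone, was at or below the floor on all 6 arrays. Left-out arrays raised the adjusted p of Pnpla2 to 0.155 and of Vnn1 to 0.23.

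In lipid synthesis, 1 of 16 lipogenesis genes (6.25%) and 2 of 19 genes of cholesterol synthesis and sterol control (10.5%) rose. None of either list fell, and 4.71% of all genes were called. Lpin1, a phosphatidate phosphatase and coactivator induced in fasting, rose from 14.96, 13.47 and 14.89 to 16.19, 16.43 and 15.92 (3.34-fold, adjusted p = 0.0335, up to 0.157 without single arrays). Stard4, a carrier of cholesterol between membranes, rose from 8.80, 8.73 and 9.77 to 11.46, 11.80 and 10.67 (4.63-fold, adjusted p = 0.00137). Insig2, which holds sterol regulators in the endoplasmic reticulum, rose by 1.33 (adjusted p = 0.0482, but 0.0595 with the block and up to 0.227 without single arrays). Fasn and Scd, which make and desaturate fatty acids, ranged at E21 from 10.22 to 14.51 and from 9.34 to 14.91 and did not pass (adjusted p = 0.829 and 0.204). Without E21 replicate 1 and 4 h replicate 3 together, the medians of lipogenesis and of cholesterol synthesis turned from 0.29 to -0.38 and from 0.29 to -0.06.

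Of 12 amino acid transporters 2 rose (16.7% called, against 4.71% of all genes). Slc38a2, a sodium-coupled importer of neutral amino acids, read 14.01, 12.68 and 12.72 at E21 and 17.14, 17.23 and 14.31 at 4 h (8.51-fold, adjusted p = 0.0144). The third 4 h array lay just above E21, and the adjusted p reached 0.0877 when single arrays were left out. Slc7a2, the cationic amino acid carrier of liver, read 15.26, 15.00 and 15.14 against 16.98, 17.26 and 15.98 (3.04-fold, adjusted p = 0.00176). Without the third 4 h array 4 of the 12 rose.

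Of 32 amino acid catabolism genes 1 was called (3.12%, against 4.71% of all genes), and it fell. Kmo, a hydroxylase of the kynurenine pathway of tryptophan, read 12.18, 11.69 and 12.25 at E21 and 9.52, 9.74 and 11.51 at 4 h, with the third array just below E21 (3.44-fold lower, adjusted p = 0.0231, up to 0.123 without single arrays). The list gave 1 higher and 7 lower with the block, and 10 lower without the third 4 h array. Tat, the tyrosine aminotransferase that is switched on at birth, read 17.95, 11.02 and 14.43 at E21 and 19.10, 19.49 and 18.23 at 4 h. The groups did not overlap, but the E21 arrays differed by more than the ages did (4.47, SE 1.51, adjusted p = 0.111). Sds, which deaminates serine, likewise read 14.69 on E21 replicate 1 against 7.53 and 7.77 on the others (adjusted p = 0.382).

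None of 8 urea cycle genes passed by the fit without a block. With the replicate number as a block 1 was higher and 2 were lower. Arg1, the last enzyme of the cycle, had a change of 1.86 (SE 0.60, adjusted p = 0.0963), and Cps1, its first, one of 0.03 near the top of the scale. Of 19 targets of ATF4, the factor of amino acid shortage, Chac1 alone was called, and the median was 0.46. Asns, which makes asparagine and is a common readout of ATF4, had a change of -0.01 (SE 0.54, adjusted p = 0.998). Without the third 4 h array 5 of the 19 rose, and from the 6 arrays alone 0 were called.

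In the endoplasmic reticulum 3 of 20 chaperone and unfolded protein response genes rose and 1 fell. Edem1, which sends misfolded glycoproteins to degradation, read 15.51, 14.86 and 15.13 at E21 and 17.68, 17.39 and 17.11 at 4 h (4.67-fold, adjusted p = 0.00446). Ern1 and Atf6, sensors of unfolded protein, rose 2.53-fold and 1.87-fold (adjusted p = 0.00501 and 0.00625). Pdia5, a disulfide isomerase, read 7.24, 9.82 and 9.62 at E21 and was at background at 4 h (6.41, 6.20 and 6.33), at least 4.53-fold lower (adjusted p = 0.00466). Hspa5, the main chaperone of this compartment, changed by 0.31 (SE 0.18, adjusted p = 0.427). Edem1, Ern1, Atf6 and Pdia5 passed in all 6 fits that left out 1 array.

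Of 20 genes of the autophagy machinery 2 rose (10% called, against 4.71% of all genes). Map1lc3b, the protein that is joined to the autophagosome membrane, read 8.73, 8.29 and 8.07 at E21 and 9.98, 10.13 and 9.35 at 4 h (2.74-fold, adjusted p = 0.011, up to 0.0665 without single arrays). Atg13, part of the kinase complex that starts autophagy, rose by 0.57 (adjusted p = 0.049, but 0.0535 with the block and up to 0.224 without single arrays). Ulk1, the kinase of that complex, changed by 0.24 (adjusted p = 0.72).

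Immediate early genes, which respond to stimuli without new protein synthesis, leaned higher, with 8 of 29 higher, 0 lower and a median of 0.56. Klf4 and Maff, counted among the 8, lay below the floor on all 6 arrays. When the spread came from the 6 arrays alone, 3 members were called higher. Klf6 (at least 2.98-fold), Dusp5 (at least 1.82-fold) and Gadd45b passed in all 6 fits that left out 1 array, with adjusted p = 0.00322, 0.00225 and 0.0032. Klf6 is a zinc finger factor, and Dusp5 a phosphatase that switches off the kinase ERK. Jund, a stable member of the AP-1 family, read 8.98, 8.77 and 8.99 at E21 and 10.09, 9.96 and 10.06 at 4 h (2.18-fold, adjusted p = 0.012). Myc, a growth factor-induced transcription factor, rose 3.14-fold (adjusted p = 0.0461). Fos, Jun and Egr1, the best known of the class, did not pass (adjusted p = 0.146, 0.426 and 0.998). Left-out arrays raised the adjusted p of Jund to 0.0643 and of Myc to 0.173.

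Of 12 genes of the glucocorticoid receptor and its targets 4 rose, and 1 was called higher from the 6 arrays alone. Mt1 and Mt2A, which encode metallothioneins, stood at the top of the scale and could not be compared, and the other 10 had a positive fitted change. Sgk1, a kinase induced by corticosteroids, read 7.89, 7.66 and 7.66 at E21 and 10.89, 9.99 and 9.62 at 4 h (5.39-fold, adjusted p = 0.000496). Nr3c1, the receptor itself, read 12.00, 11.56 and 11.43 against 13.99, 13.99 and 12.76 (3.77-fold, adjusted p = 0.00176). Both were separate on every array and passed with any of the 6 arrays left out. Klf9 and Zbtb16, transcription factors induced by the receptor, rose 3.19-fold and 2.75-fold (adjusted p = 0.0165 and 0.023, up to 0.0891 and 0.112 without single arrays). Fkbp5 and Tsc22d3, also induced by the receptor, did not pass (0.42 and 0.29, adjusted p = 0.369 and 0.71).

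Genes of acute phase and IL-6 signalling had a median of 0.66, with 5 of 19 higher and 0 lower, and 1 higher from the 6 arrays alone. Of the 19, 4 stood at the top of the scale, and the median of the other 15 was 0.98. Osmr, the receptor subunit for oncostatin M, read 7.03 to 8.05 at E21 and 10.04, 10.45 and 9.01 at 4 h (4.41-fold, adjusted p = 0.0225). Steap4, a metalloreductase induced by inflammation, rose 2.94-fold (adjusted p = 0.00648), Il1r1, the interleukin 1 receptor, 2.84-fold (adjusted p = 0.0212) and Stat3, the transcription factor of the pathway, 2.52-fold (adjusted p = 0.0323). Socs3, its feedback inhibitor, rose at least 1.46-fold (adjusted p = 0.0207). Steap4 passed in all 6 fits that left out 1 array, and the other 4 reached between 0.106 and 0.15. Macrophage markers moved in the same samples: their summed intensity was 23260 to 28800 at E21 and 33120 to 43370 at 4 h, and the part of this shift in the result was not tested.

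Of 16 clock genes Nr1d2, Rora and Clock rose (18.8% called, against 4.71% of all genes). Nr1d2, a repressor of the clock, read 9.03, 8.15 and 7.90 at E21 and 10.68, 10.47 and 10.65 at 4 h (4.73-fold, adjusted p = 0.00176). Rora, an activator, rose 3.27-fold (adjusted p = 0.00883) and Clock, a core factor, 1.70-fold (adjusted p = 0.00321). Time of day at collection is not in the labels and cannot be told apart from age here. Of 17 genes of the hypoxia response, Epas1, which encodes the HIF-2 alpha subunit, read 11.71, 11.08 and 11.68 at E21 and 13.68, 13.85 and 13.23 at 4 h (4.28-fold, adjusted p = 0.00023). Hif3a, a family member that can restrain the others, fell from 11.81, 12.85 and 11.69 to 10.78, 9.98 and 9.83 (3.79-fold lower, adjusted p = 0.0323). Adm, a vasodilator peptide and HIF target, passed with all arrays below the floor, and so has no fold. Nr1d2, Clock and Epas1 passed with any array left out, while Rora reached 0.0544, Hif3a 0.152 and Adm 0.105.

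Of 21 cytochromes P450 and their reductase 2 rose and 1 fell (14.3% called, against 4.71% of all genes). Cyp2c22, a cytochrome that can oxidise retinoic acid, read 14.51, 13.53 and 14.53 at E21 and 16.53, 17.02 and 17.44 at 4 h (6.98-fold, adjusted p = 0.00244). Por, the reductase that supplies electrons to these enzymes, read 12.14, 10.06 and 10.88 against 13.42, 13.71 and 13.50 (5.73-fold, adjusted p = 0.00319). For Cyp2c22 the third 4 h array was the highest, and both genes passed with any array left out. Cyp2f4 fell 2.21-fold (adjusted p = 0.0231, up to 0.123 without single arrays). Cyp2e1, the ethanol-inducible form, ranged from 12.43 to 17.65 at E21 and from 13.26 to 16.62 at 4 h and did not pass (adjusted p = 0.879).

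Abcc2, the canalicular exporter of conjugates, was the called gene among 14 transporters and rose 4.35-fold (adjusted p = 0.0102, up to 0.0656 without single arrays). Among 16 hepatocyte transcription factors and nuclear receptors Foxa3, a forkhead factor of liver, rose from 10.13, 10.80 and 10.95 to 12.36, 13.09 and 11.95 (3.58-fold, adjusted p = 0.00323).

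Ribosome biogenesis genes leaned higher by small steps. Of 35 genes 6 rose, 0 fell and 32 had a positive change, with a median of 0.52. Rrn3, which recruits RNA polymerase I, read 10.89, 10.67 and 10.77 at E21 and 12.30, 12.35 and 11.30 at 4 h (2.31-fold, adjusted p = 0.00466), and Tsr1, a maturation factor of the small subunit, rose 2.39-fold (adjusted p = 0.00701). Wdr43, Utp18 and Utp15, processing factors of the small subunit, rose 2.63-fold, 1.83-fold and 1.57-fold, and Pes1, of the large subunit, 1.51-fold (adjusted p between 0.0136 and 0.0235). The count was 11 without the third 4 h array and 1 from the 6 arrays alone. Rrn3 and Tsr1 passed with any array left out, and the others reached between 0.0824 and 0.126.

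Of 27 cell cycle genes 1 passed (3.7%), near the 4.71% of all genes. Cdkn1a, which encodes the inhibitor p21, rose (3.75-fold, adjusted p = 0.00194), from 8.75, 9.59 and 8.95 to 10.73, 11.12 and 11.16. Mki67, a proliferation marker, changed by -0.13 (SE 0.28, adjusted p = 0.907). Peg10 was the called gene among 14 imprinted and oncofetal genes (7.14%). Igf2, the fetal growth factor, changed by -0.29 (adjusted p = 0.325), and none of 10 genes of the growth hormone and IGF axis passed. Afp and Alb stood at the top of the scale on all 6 arrays and could not be compared.

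Of 14 genes of activin and BMP signalling, Fst, the activin-binding follistatin, was at background at E21. It read 11.13, 12.80 and 5.90 at 4 h, so the third array was at background. With these background arrays set to the floor, Fst was 11.3-fold higher, which is no lower bound (adjusted p = 0.0433 by limma). Bmp2 rose 1.90-fold (adjusted p = 0.0304). Both passed only without the third 4 h array when single arrays were left out, with a highest adjusted p of 0.19 and 0.157. Of 13 antioxidant genes Srxn1 passed, with all arrays below the floor. None of 11 heat shock genes (median 0.30) or of 10 genes of pyruvate dehydrogenase and pyruvate carriers (median 0.06) passed. Pdk4, a fasting-induced kinase of that enzyme, read 11.69 to 11.80 at E21 and 13.18 to 13.75 at 4 h with no overlap, but missed the threshold (1.66, SE 0.56, adjusted p = 0.109).

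**Figure D3:**
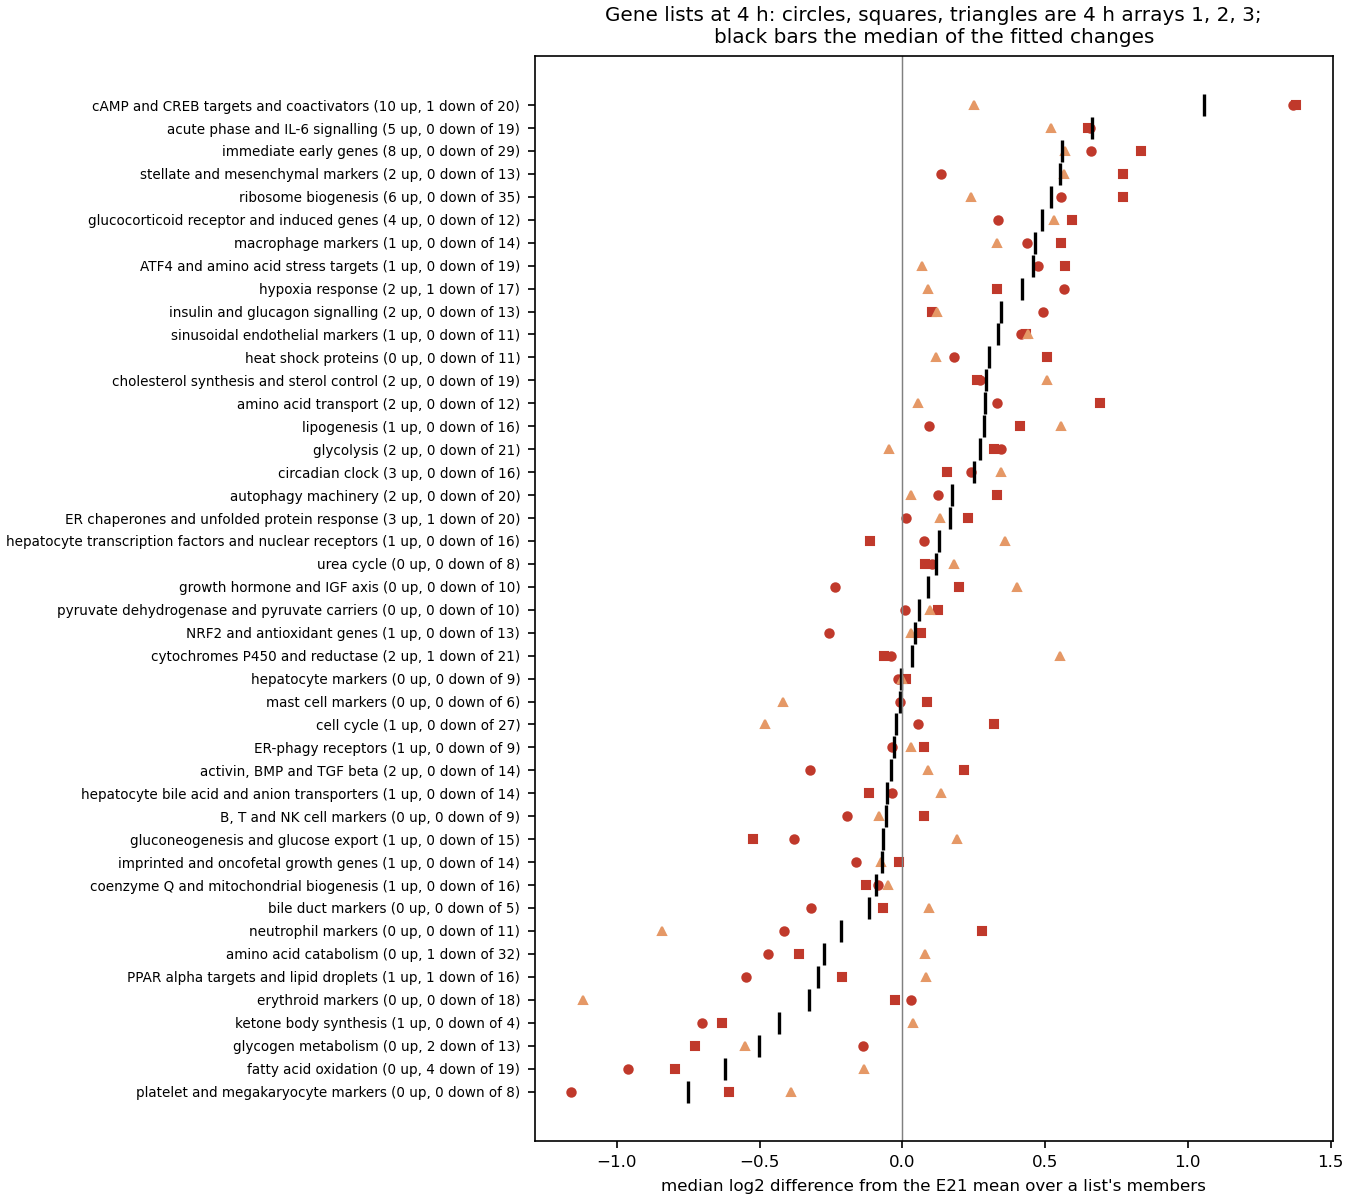
The 44 gene lists, each with its counts of called genes, ordered by the median of the fitted log2 changes (black bars). Circles, squares and triangles show the list's median difference from the E21 mean on 4 h arrays 1, 2 and 3. The cAMP and CREB list lies furthest to the right at 1.06, and fatty acid oxidation at -0.62 is near the left end, with the third array closer to 0 in both.

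Among called genes with groups apart and a brighter mean of at least 8, the largest falls were smaller than the largest rises. Called falls outside this rule included Slc36a2 (-2.71, adjusted p = 0.0237 by limma), whose groups overlapped. Anks4b (-2.34, adjusted p = 0.00677 by limma), with a brighter mean of 7.95, was another. Slc10a5, a member of the bile acid carrier family, read 10.19, 10.55 and 10.27 at E21 and 7.04, 7.50 and 9.46 at 4 h (5.05-fold lower, adjusted p = 0.0184). Sec14l2, a lipid-binding protein, fell 4.10-fold, Slc22a8, a carrier of organic anions, 4.03-fold, and RGD1559600 4.59-fold (adjusted p = 0.0092, 0.0224 and 0.00701). Dcun1d2, which helps to activate cullin ubiquitin ligases, read 7.73, 8.02 and 8.77 at E21 and fell below the floor at 4 h (6.60, 6.22 and 6.42), at least 2.74-fold lower (adjusted p = 0.00128). Prkd3, a protein kinase of the D class, read 12.26, 11.96 and 12.12 against 10.33, 9.89 and 11.25 (3.09-fold lower, adjusted p = 0.0031), and Pkhd1, the gene of polycystic kidney and liver disease, a mean of 9.43 against 7.71 (3.28-fold lower, adjusted p = 0.00759).

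The remaining falls among the 15 largest were enzymes. Akr7a2, an aldehyde reductase, Selenbp1, which oxidises methanethiol, and Myorg, a glycosidase, fell 3.07-fold, 3.04-fold and 3.40-fold (adjusted p between 0.0164 and 0.0373). Of the genes in these paragraphs on falls, Dcun1d2, Prkd3, Pkhd1 and RGD1559600 passed with any array left out. Slc10a5 reached 0.0984, Sec14l2 0.0535, Slc22a8 0.114, Akr7a2 0.0965, Selenbp1 0.181 and Myorg 0.131, the last 2 passing only without the third 4 h array.

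The labelled tissue was checked against markers of its cells. Of 9 hepatocyte markers 8 read a mean of at least 13.83 at E21, with Serpina1 lower at 7.56. Alb and Ahsg stood at the top of the scale and several others close to it, so these markers check the tissue but not whether their level changed. Erythroid markers, typical of a fetal liver that still makes blood, had a median of -0.33, which came from the third 4 h array (0.03, -0.02 and -1.12), and 0 of 18 passed. All 8 platelet and megakaryocyte markers had a negative change, with a summed intensity of 35840 to 49810 at E21 and 20640 to 28820 at 4 h, but 0 passed (median -0.75).

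Markers of the cells that line the sinusoids leaned higher. The summed intensity of the 11 endothelial markers was 28390 to 39970 at E21 and 48110 to 57770 at 4 h, with Lyve1, a hyaluronan receptor, the called gene (2.12-fold, adjusted p = 0.0185). Of 13 stellate and mesenchymal markers Timp1, an inhibitor of metalloproteinases (at least 1.99-fold, adjusted p = 0.012), and Reln, the secreted protein reelin (1.63-fold, adjusted p = 0.044), rose. Of 14 macrophage markers the complement gene C1qc rose (1.63-fold, adjusted p = 0.0405). Left-out arrays raised these adjusted p-values to 0.0989, 0.0741, 0.177 and 0.195. No marker of neutrophils, mast cells, bile duct, or B, T and NK cells passed. In whole liver, fewer cells of a type and less RNA per cell cannot be told apart.

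The neighbouring ages show how long these changes lasted. Against 30 min, 186 genes (0.983%) differed at 4 h, and against 4 h, 1684 genes (8.9%) differed at 12 h. Of the 550 genes higher at 4 h than at E21, 95 were also higher than at 30 min, and 292 were lower again at 12 h while 8 were higher still. Of the 342 lower genes, 64 were also lower than at 30 min, 115 were higher again at 12 h and 3 were lower still. The 4 h arrays enter all these comparisons, so the counts are not independent of each other. The 186 genes became 438 without the third 4 h array, and 1 gene when the spread came from those 6 arrays alone.

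In all, 76 genes passed all 3 comparisons as a peak at 4 h and 40 as a trough. Coq10b had means of 8.16 at E21, 9.33 at 30 min, 13.77 at 4 h and 8.85 at 12 h, with an adjusted p of 0.00187 against 30 min and 5.37e-05 for 12 h against 4 h. Retreg1 (0.00815 and 0.00012), Ppargc1a (0.0465 and 9.31e-05), Sgk1 (0.00606 and 0.000511), Epas1, Pfkfb3, Stard4, Cdkn1a, Rnd3 and Phaf1 were peaks as well. Dcun1d2 and Prkd3 were troughs, back at 8.28 and 11.89 by 12 h. Agt, Nr1d2 and Por by contrast had changes of -0.08, -0.22 and 0.48 from 4 h to 12 h that did not pass.

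Several genes of lipid metabolism and signalling that had not passed at 4 h did so between 4 h and 12 h. Acot1, a thioesterase of fatty acid oxidation, rose by 5.80 (SE 0.47, adjusted p = 4.93e-06) and Plin2 by 5.38 (SE 0.53, adjusted p = 1.89e-05). Inhbe, a liver subunit of activin E, rose by 9.81 (SE 1.00, adjusted p = 2.77e-05), Angptl4 by 4.23 and Cpt1a by 2.64 (adjusted p = 0.00399 and 0.00327). Hadh and Eci1, which were lower at 4 h than at E21, rose by 1.94 and 2.43 (adjusted p = 0.000151 and 0.000341), and 10 of the 19 fatty acid oxidation genes rose with none falling. Insig1, which like Insig2 retains sterol regulators, fell by 6.85 (SE 0.52, adjusted p = 3.37e-06), as did 12 of 19 genes of cholesterol synthesis and sterol control. Lpin1 and Edem1, higher at 4 h, fell by 5.22 and 4.26 (adjusted p = 5.65e-06 and 8.91e-06).

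**Figure D4:**
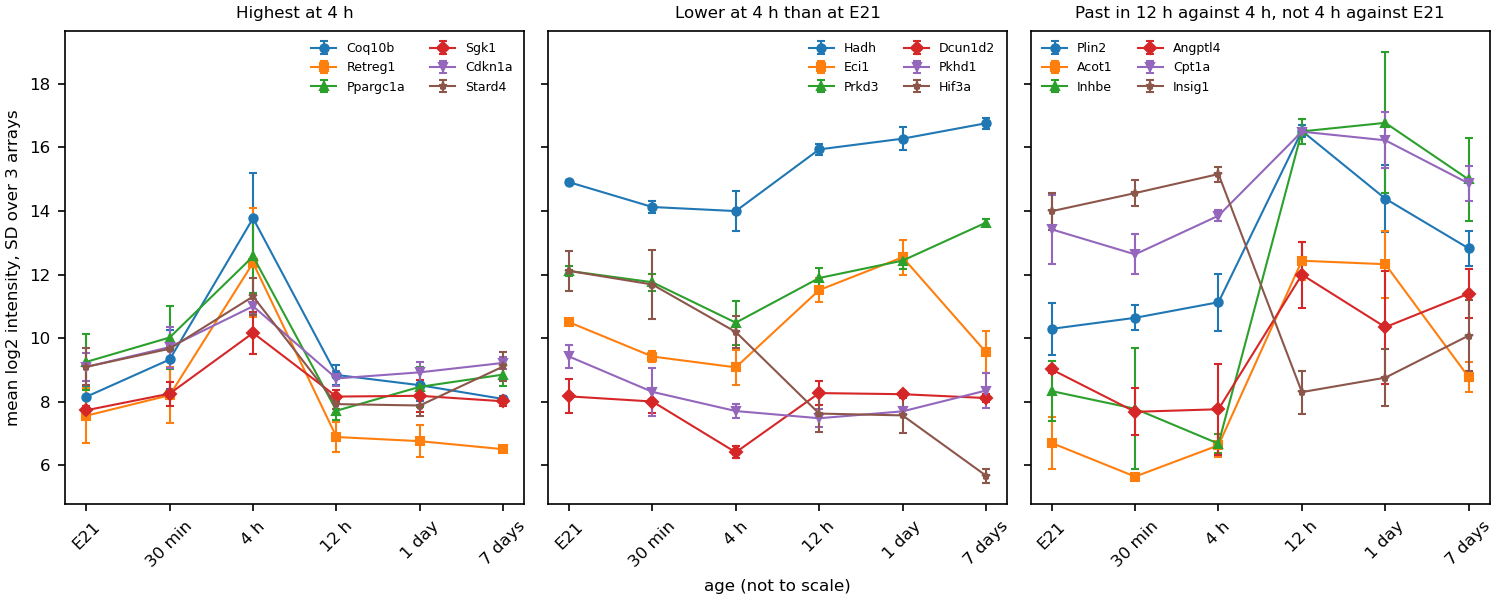
Mean log2 intensity at each of the 6 ages, with bars for the SD over 3 arrays, for genes highest at 4 h (left), genes lower at 4 h than at E21 (middle) and genes that passed between 12 h and 4 h but not between 4 h and E21 (right). Ages are evenly spaced, not to scale. Coq10b stands at 13.77 at 4 h and 8.85 at 12 h, and Plin2 and Acot1 climb after 4 h.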

How the data were processed

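The authors' deposited table holds linear intensities per transcript cluster for 18 arrays, with a highest value of 999969. Per the submitters' processing notes, RMA and Affymetrix Expression Console 1.0 were used, with no role or order given. The annotation release is not given in the sources used here. Of 24753 features, 19837 carried 1 gene symbol, 420 several and 4496 none, and the brightest cluster per symbol was kept. Intensities were taken to log2 with no pseudocount and fitted with limma 3.58.1 in R 4.3.3, with 1 mean per age over all 18 arrays and Benjamini-Hochberg adjustment over 18926 genes. In simulated data for 4 h against E21, 77.5% of changes of 1 on the log2 scale, 95% of changes of 2 and 100% of changes of 4 were found, with 10 false calls. The simulation drew independent normal noise, with the same SD for a gene at every age. It held no array that deviated over many genes, so these rates need not hold for the real arrays. The number of arrays limits the precision.

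The members and the 44 gene lists (675 of 718 entries matched) were chosen with earlier results of these data known. Named genes were the 15 largest rises and falls among called genes that did not overlap and had a brighter mean of at least 8, up to 6 called genes of each list, and reference genes named whatever their result. The replicate numbers come from the titles, which give them no meaning. The deviations of same-numbered E21 and 4 h arrays correlated at 0.114, 0.107 and 0.292, those of differently numbered ones at -0.206 to 0.091. Same-numbered E21 and 12 h arrays correlated at -0.124, -0.142 and -0.031. The number was also used as a block, but whether it marks a shared unit is not known. Other alternatives were the arrays used, normalization, array weights, prior, filter, pseudocount, cluster averaging and arrays left out.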

Additional observations from a re-analysis of the deposited data

Results flagged for a closer look

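Transcript clusters without a gene symbol were left out of the comparisons by gene. In a fit of all features together, 56 of 4496 such clusters (1.25%) passed between 4 h and E21, 29 of them higher and 27 lower, against 757 of 19837 clusters with 1 symbol (3.82%). The cluster TC1100000697.rn.1 read 7.91, 11.07 and 10.82 at E21 and 6.57, 6.66 and 6.69 at 4 h. They are given as data outside the main measurement, and what these clusters encode was not analysed here.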

How the results depend on the processing

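The count of genes differing between 4 h and E21 (892) was 139 from the 6 arrays alone and 2244 with array weights. It ranged from 274 to 1371 with single arrays left out, and was 1351 without E21 replicate 1 and 4 h replicate 3 together. Between 4 h and 30 min it was 186, with 1 from those arrays alone, 1181 with weights and 46 to 438 with arrays left out. Between 12 h and 4 h it was 1684, with 1080, 3888 and 883 to 1788. Of the 892 genes, 226 passed in all 6 fits that left out 1 array. With the replicate block the counts for 4 h against E21 were 1028, of which 822 were shared. Among the genes named by the rule above, the replicate block added Pck1 and Bdh1, removed Insig2 and Atg13, and changed no other call. It also removed Tnfrsf12a, which was picked after its values were seen. Quantile normalization, the trended prior, the dim filter, the pseudocount and the mean of clusters kept all 3 counts within 1.5 times.

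Changes that missed the threshold turned sign as follows, and the cause was not tested. Array weights gave 0.1072 for Asns, 0.0215 for Mki67 and -0.3138 for Igf1. Without E21 replicate 1 and 4 h replicate 3 together, Insr was 0.0486, Plin2 -0.0824, Asns 0.3665, Mki67 0.2682 and Igf1 -0.1845. With single arrays left out, the change ranged from -0.2902 to 0.4153 for Asns, -0.3292 to 0.2143 for Mki67, -0.1962 to 0.7423 for Igf1, -0.2004 to 0.1118 for Fbp1, -0.3447 to 0.0651 for Insr, -2.023 to 0.5863 for Cyp2e1 and -0.3559 to 0.3891 for Acot1. It ranged from -0.5603 to 2.7995 for Tdo2, -0.0143 to 0.1096 for Cps1, -0.178 to 0.1327 for Egr1, -0.1943 to 0.8144 for Cpt1a, -1.6426 to 0.5002 for Fasn and -0.1044 to 0.3669 for Hamp. Values at or below the floor of 6.72 and within 0.1 of the top of 19.93 carry no size of change.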

Other observations

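The families below were chosen after their values were seen, so they are given without a test of the family. Over all genes 2.91% were called higher. Both catalytic subunits of the energy sensor AMPK rose, Prkaa1 by 0.88 and Prkaa2 by 2.18 (SE 0.53, adjusted p = 0.0305). Prkaa2 read 12.28, 12.22 and 10.15 at 4 h against 10.29, 8.59 and 9.22 at E21, so the third 4 h array lay below E21 replicate 1. Of 15 subunits of protein phosphatase 2A, 5 rose and 0 fell, led by the catalytic Ppp2ca at 1.68, with a median of 0.22. The array holds 2 clusters for Ppp2ca, and only the brighter one is given here. Ppp2r3b, counted among the 5, was at or below the floor on 3 arrays of E21 and 1 of 4 h. With these arrays set to the floor it was 1.22-fold higher, which is no lower bound. Lipin 2, encoded by Lpin2, rose with Lpin1 (1.28, adjusted p = 0.00532). Of 17 Kruppel-like factors 5 rose, of which Klf4 lay below the floor on all 6 arrays and Klf11 on all but 1, so neither has a size of change. Of 19 members of the TNF receptor superfamily 3 rose: Tnfrsf1a by 1.04, Tnfrsf1b by 1.46 and Tnfrsf12a by 2.73 (adjusted p = 0.00274, 0.00208 and 0.0454). Tnfrsf12a was at or below the floor at E21 and lost its call with the replicate number as a block (adjusted p = 0.0589). Lifr, the receptor for leukaemia inhibitory factor, read 13.47, 13.19 and 13.27 at E21 and 14.88, 14.65 and 14.66 at 4 h (adjusted p = 0.000139).

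Some of the 40 troughs at 4 h are given singly, picked after their values were seen and with no count of their kind. Kmt2a, a histone methyltransferase and the 1 called gene among 5 of its Kmt2 family, read 8.61, 8.50 and 8.19 at E21 and 7.66, 7.41 and 7.23 at 4 h (adjusted p = 0.00274). Ehmt1, another histone methyltransferase, Arid1a, a subunit of a chromatin remodeller, and Baz1b fell by 0.63, 0.64 and 0.78. Bcl9 and Bcl9l, coactivators of beta-catenin, fell by 0.69 and 1.10, with 2 of the 3 arrays of 4 h at the floor in each. Meis1, a homeobox transcription factor, fell by 1.20.

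Mcam, Esam and Clec14a, which endothelial cells express, were likewise picked after their values were seen and rose by 1.05, 1.20 and 1.04 (adjusted p = 0.00204, 0.00325 and 0.0031), where 1 of the 11 listed endothelial markers was called. Outside the metabolic lists, Idh1, the cytosolic isocitrate dehydrogenase, and the mitochondrial enzymes Nnt and Suclg2 fell by 1.39, 1.22 and 1.04 (adjusted p = 0.0293, 0.0166 and 0.0261). Idh1 read 14.86, 15.87 and 15.92 at E21 and 13.84, 13.61 and 15.04 at 4 h, so its groups overlapped.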
